A study of Mus musculus with 9 samples.

Results

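The mitosis genes are a list of 47 genes out of 31053 in the deposited matrices, chosen by symbol for what their products do: mitotic cyclins and their kinase, mitotic kinases, the spindle checkpoint, kinetochores, spindle microtubules, cytokinesis and the transcription factors of the G2/M programme. All 47 symbols were found. Their levels were read as unique molecular identifiers (UMIs, counts of captured transcripts) in microglia and in the other cells that came with them.

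CD11b+ live cells were sorted from myelin-depleted brains, cerebellum removed, of female C57BL/6 mice 5 months old and profiled by 10x Genomics 3′ single-cell RNA-seq. Ctrl mice were untreated (3 libraries, 1 brain each), D0 mice had eaten the CSF1R inhibitor PLX5622 in their diet at 1200 mg/kg for 14 days (3 libraries of 2 pooled brains), and D2 mice had the same 14 days followed by 2 days of control diet (3 libraries of 2 pooled brains). No transgene or Cre was used, so the sort on CD11b, which other myeloid cells also carry, is the only restriction to microglia. D2-3 was left out by the study and stands apart here, so fits used the other 8 libraries and its values are given beside them.

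Cells enter mitosis when cyclin-dependent kinase 1 (Cdk1) is switched on by cyclins A and B. Chromosomes are then attached to the spindle through kinetochores, a checkpoint holds the cell back until every chromosome is attached, and Cdc20 turns on the anaphase-promoting complex (APC/C), which destroys the cyclins and lets the chromatids part. Many of these genes share promoter elements, the CHR and the CCAAT box, through which the DREAM, B-Myb and FoxM1 complexes and NF-Y act, and microglia of the healthy adult brain divide rarely.

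RefSeq promoter windows (GRCm38.p6, 250 bases before to 50 after the start) were at hand for 37 of the 47 genes. The CHR was searched as TTTGAA with its reverse complement TTCAAA, together with TTCGAA, which reads the same on both strands. The CCAAT box was searched as CCAAT on either strand, and reads ATTGG where it lies on the other one. Only the 250 bases before the start were searched, for the members and for all genes. A CHR stood in them in 14 of the 37 genes (37.8%), against 19.6% of 27025 genes. A CCAAT box stood in 27 of the 37 (73.0%), against 37.5% of all genes, and both in 13 (35.1%), against 7.0%. These are matches of letters and not shown to be sites. The 120 bases before the start are printed for 6 members that the results turn on, with both motifs in capitals: 3 that were higher late in division (Cdc20, chr4:118437344-118437463, minus strand; Ube2c, chr2:164769809-164769928, plus strand; Ccnb2, chr9:70421555-70421674, minus strand), 2 that did not pass that test (Cdk1, chr10:69352913-69353032, minus strand; Top2a, chr11:99024190-99024309, minus strand), and Mybl2 (chr2:163054515-163054634, plus strand), which rose at D0 but was not called at D2.
Cdc20: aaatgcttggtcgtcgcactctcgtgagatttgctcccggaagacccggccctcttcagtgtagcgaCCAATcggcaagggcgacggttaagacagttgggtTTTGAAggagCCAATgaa
Ube2c: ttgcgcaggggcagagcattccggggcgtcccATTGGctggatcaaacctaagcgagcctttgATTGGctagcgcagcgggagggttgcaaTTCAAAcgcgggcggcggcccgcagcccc
Ccnb2: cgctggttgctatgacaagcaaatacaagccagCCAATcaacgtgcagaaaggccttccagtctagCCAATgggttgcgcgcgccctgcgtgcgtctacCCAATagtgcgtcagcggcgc
Cdk1: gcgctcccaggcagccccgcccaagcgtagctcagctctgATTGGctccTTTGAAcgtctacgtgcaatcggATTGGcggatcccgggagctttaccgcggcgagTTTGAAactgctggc
Top2a: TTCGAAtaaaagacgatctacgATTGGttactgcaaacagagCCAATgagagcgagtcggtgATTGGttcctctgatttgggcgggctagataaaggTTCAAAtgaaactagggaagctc
Mybl2: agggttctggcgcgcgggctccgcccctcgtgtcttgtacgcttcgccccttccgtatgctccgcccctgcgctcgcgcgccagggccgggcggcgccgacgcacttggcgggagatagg
Cdc20 carries 1 CHR next to a CCAAT box close to its start, Cdk1 and Top2a carry 2 CHR each, Ccnb2 carries 3 CCAAT boxes and no CHR in these bases, and Mybl2 carries neither motif. Bub3, the member whose level moved least below, also holds both: a CHR lies 43 bases and CCAAT boxes lie 74 and 32 bases before the first of its 2 listed starts.

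After filters on UMIs, genes and mitochondrial share, 1808 to 4980 cells were kept per library. Clustering without 176 cell-cycle genes, the 47 members among them, left microglia-like cells numbering 8918 over the Ctrl libraries, 8615 over D0 and 4622 over D2-1 and D2-2. Their P2ry12, a homeostatic microglial receptor, was lower after treatment, at 2462 to 3049 CPM (a gene's UMIs, scaled to a fixed total of UMIs of the class in a library) in Ctrl, 955 to 1350 in D0, 571 and 575 in D2, and 208 in D2-3. A cluster was named microglia-like if at least 3 of 12 microglia markers reached 100 CPM in it and no other marker list led. A cluster of low depth was left unnamed if none of those markers was among its leading genes. By that rule 1931 cells, at a median of 0.29 times the median UMIs of their library, were unnamed although 11 of the 12 markers reached 100 CPM. They numbered 473 in Ctrl, 785 in D0 and 673 in D2-1 and D2-2, and are outside the microglia-like sums and shares. The clusters of this class differed in make-up. The largest held 74, 25 and 60 Ctrl cells and 1505, 1331 and 320 D0 cells. Another held 2205, 372 and 465 Ctrl cells and 79, 25 and 103 D0 cells. Cells of D2-3 were placed by a vote of 30 neighbours. D2-3 also lost 37.3% of its barcodes to the upper UMI limit, against 1.2% to 24.2% in the others. D0-3 was the D0 library with the highest summed level of 26 S-phase genes, 833 CPM against 342 and 323 CPM in D0-1 and D0-2. No 2 libraries shared more than 8 cell barcodes.

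The mitosis genes rose almost as a block in microglia-like cells at D0. Summed over the 47 genes, Ctrl libraries held 217, 179 and 199.95 CPM, D0 libraries 1739, 2280 and 2079 CPM, and D2 libraries 2333 and 2722 CPM. The group means were 199 ± 19.3 (SD, n = 3), 2033 ± 273 (SD, n = 3) and 2528 ± 275 CPM (SD, n = 2), and every D0 and D2 library was above every Ctrl library. D2-3 held 5932 CPM.

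Each gene's UMIs were summed per library and fitted by edgeR (quasi-likelihood), p-values were adjusted by Benjamini-Hochberg over all 12390 genes tested, and a gene was called at an adjusted p under 0.05. At D0 against Ctrl, 46 of 47 members rose and none fell, where 12.1% of all genes tested rose and 7.24% fell. The median member changed by 5.10 on the log2 scale, against -0.05 over all genes. At D2 against Ctrl, 45 of 47 rose and none fell, where 10.8% of all genes rose and 7.7% fell, with a median member change of 5.13 against -0.03. In each of D0 and D2, every library was above every Ctrl library for 46 members, Bub3 being the exception, where 12.4% of all genes at D0 and 17.9% at D2 were above in this way. Both comparisons share the Ctrl libraries.

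**Figure D1:**
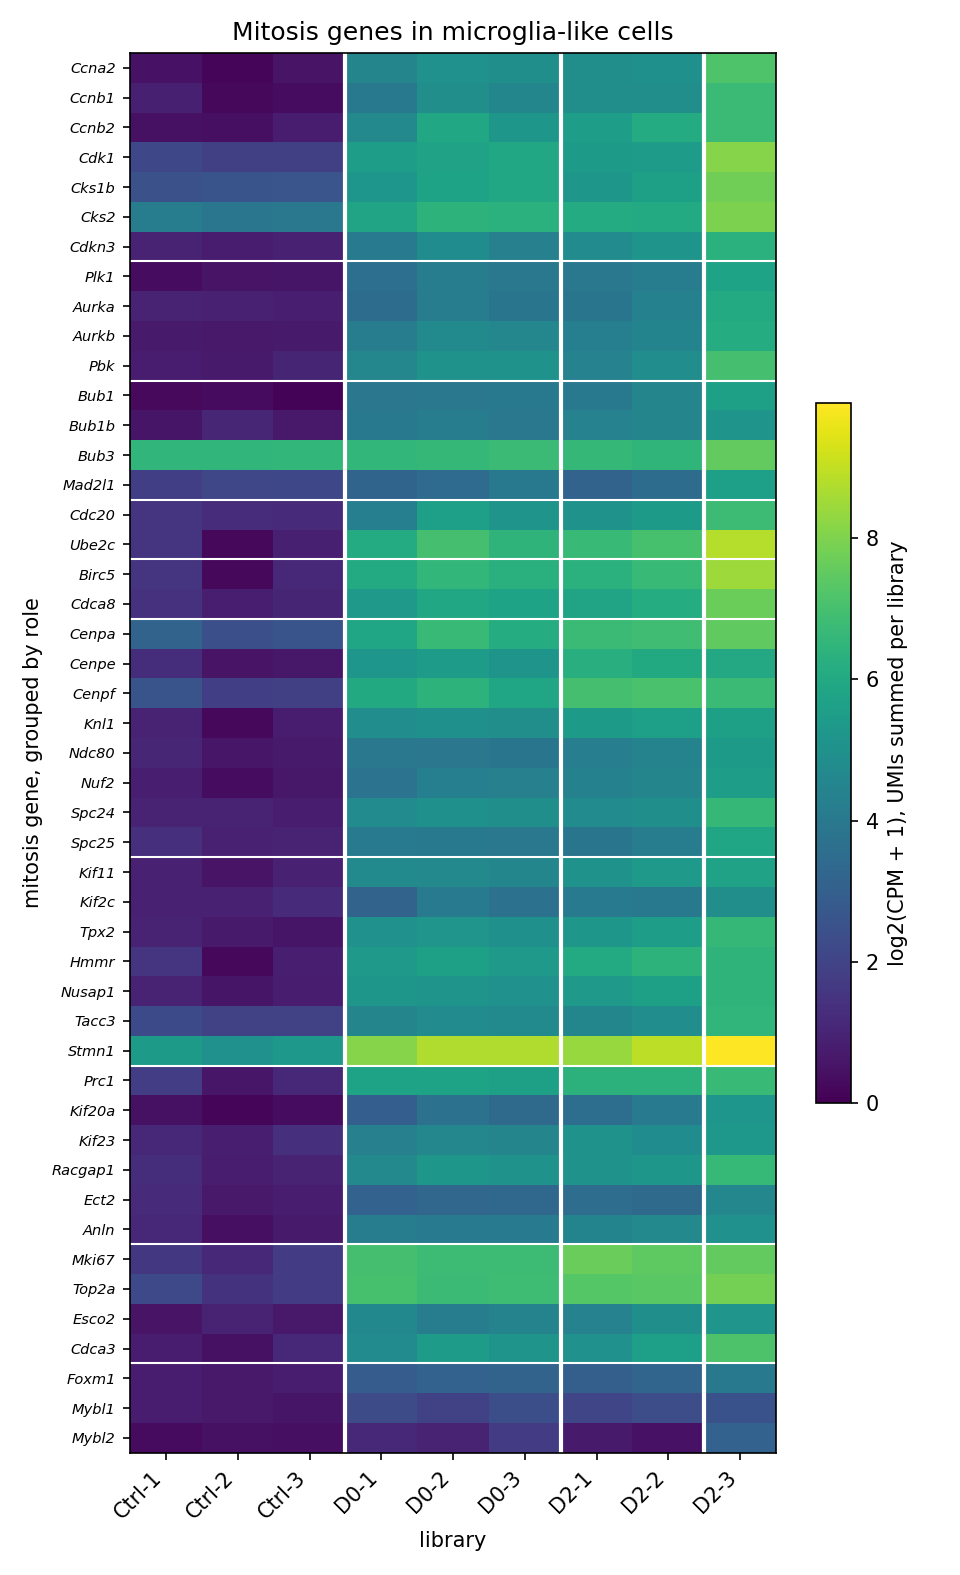
Level of each of the 47 mitosis genes (rows, grouped by role) in microglia-like cells of each library (columns), as log2(CPM + 1). Ctrl columns are dark for most genes, D0 and D2 columns are lighter, D2-3 is the lightest for most of them, and Bub3 is about as bright in Ctrl as in D0 and D2.

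Cyclins, Cdk1 and their partners were called in full, 7 of 7 at both times, with log2 changes from 2.47 to 6.62 at D0. Ccna2, cyclin A2, which works in S phase and into early mitosis, was at 0.416, 0.107 and 0.447 CPM in Ctrl, 22.1, 31.3 and 29.96 CPM in D0, and 29.3 and 30.5 CPM in D2. Ccnb1, cyclin B1, the main partner of Cdk1 at entry into mitosis, went from 0.831, 0.160 and 0.244 CPM to 15.3, 28.9 and 22.7 CPM in D0 and 28.7 and 29.1 CPM in D2. Ccnb2, cyclin B2, was at 0.378, 0.321 and 0.692 CPM, then 24.4, 59.2 and 36.7 CPM, then 45.4 and 68.3 CPM, log2 changes of 6.62 ± 0.47 (SE) at D0 and 7.01 ± 0.49 (SE) at D2. The treated libraries of these 3 cyclins lay far above Ctrl without overlap.

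Cdk1 itself was at 3.44, 2.67 and 2.64 CPM in Ctrl, 45.2, 52.1 and 59.97 CPM in D0, and 41.5 and 43.1 CPM in D2. Cks1b, a small subunit that binds cyclin-dependent kinases, stood at 4.50, 4.91 and 5.13 CPM, then 36.3, 52.6 and 59.4 CPM, then 37.5 and 49.1 CPM. Cks2, its close relative, was already at 16.9, 13.8 and 14.8 CPM in Ctrl and reached 54.8, 83.9 and 78.9 CPM in D0 and 67.1 and 65.9 CPM in D2. Cks2 therefore had 1 of the smallest changes, 2.47 ± 0.18 (SE) on the log2 scale at D0, although its groups did not overlap either.

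The 4 mitotic kinases all rose, with log2 changes from 4.23 to 5.40 at D0 and from 4.38 to 5.45 at D2. Plk1, polo-like kinase 1, which drives centrosome maturation and mitotic exit, went from 0.265, 0.427 and 0.488 CPM to 11.3, 16.9 and 14.9 CPM in D0 and 14.5 and 17.5 CPM in D2. Aurka, the kinase of the spindle poles, went from 0.907, 0.855 and 0.773 CPM to 10.48, 16.99 and 13.6 CPM, then 13.6 and 19.3 CPM. Aurkb, the kinase of the chromosomal passenger complex, went from 0.642, 0.588 and 0.651 CPM to 17.1, 24.9 and 22.98 CPM, then 18.7 and 21.4 CPM. The other 2 subunits of that complex on the list rose too, Birc5 (survivin) from 1.78, 0.160 and 1.14 CPM to 65.6, 92.8 and 77.7 CPM and then 79.3 and 105 CPM, and Cdca8 (borealin) by 5.60 on the log2 scale at D0.

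Members of the spindle checkpoint moved unequally, with 3 of 4 called at each time. Bub1, a checkpoint kinase, had 11 UMIs in all Ctrl cells and 1087 in D0, a log2 change of 6.70 ± 0.30 (SE), among the 3 largest of the list. Bub1b (BubR1) was at 0.491, 1.07 and 0.610 CPM in Ctrl, 15.1, 17.6 and 14.6 CPM in D0, and 19.95 and 22.2 CPM in D2. Mad2l1, whose product holds Cdc20 inactive, rose least of the called members, from 2.61, 3.37 and 3.50 CPM to 8.23, 9.93 and 15.3 CPM at D0, and 7.95 and 10.4 CPM at D2 (log2 changes 2.02 ± 0.27 and 1.64 ± 0.30, SE). Its adjusted p was 0.000829 at D0 and 0.0048 at D2, and thinned to 2000 UMIs per cell it was not called at D2 (1.2, adjusted p = 0.0684).

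Bub3, the partner of Bub1 and BubR1, was at 90.5, 90.6 and 93.6 CPM in Ctrl, 93.0, 96.6 and 107 CPM in D0, and 97.0 and 90.002 CPM in D2. Those libraries overlap, and the log2 changes of 0.32 ± 0.11 (SE, adjusted p = 0.0665) and 0.14 ± 0.12 (SE, adjusted p = 0.466) were not called. It was called at D0 by DESeq2 (0.34), and by edgeR without D0-1 (0.38), with no upper UMI limit (0.43) and with the replicate number as a block (0.32, adjusted p = 0.0475). At least 1 Bub3 UMI was in 49.0% of Ctrl, 46.8% of D0 and 39.9% of D2 microglia-like cells, whereas Mki67 was in 0.280%, 13.4% and 14.7%. Endothelial-like cells of the same libraries, in which Mki67 was at 0 to 9.09 CPM, held 102 to 151 CPM of Bub3.

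Cdc20, the activator of the APC/C, went from 1.81, 1.39 and 1.30 CPM to 18.7, 47.8 and 33.7 CPM in D0 and 33.4 and 41.7 CPM in D2. Ube2c, the enzyme that passes ubiquitin to APC/C targets, had the largest log2 change of the list at D0, 6.72 ± 0.50 (SE), from 1.89, 0.160 and 0.854 CPM to 67.0, 125 and 86.4 CPM, and was at 106 and 129 CPM in D2. The APC/C itself changed far less in size, with a median log2 change of 0.10 at D0. Of its 15 subunit and co-activator genes, 2 rose at D0 and 1 at D2, led by Anapc15 with 0.69 at D0 and 0.82 at D2. Of all genes tested, 12.1% rose at D0 and 10.8% at D2.

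All 8 centromere and kinetochore genes rose, with log2 changes from 3.94 to 5.70 at D0 and from 3.85 to 6.45 at D2. Cenpa, the histone H3 variant that marks centromeres, was at 7.82, 4.38 and 4.96 CPM in Ctrl, 57.0, 101 and 69.2 CPM in D0, and 107 and 115 CPM in D2. Cenpf, a large kinetochore protein that builds up in G2, was at 4.99, 2.56 and 2.73 CPM, then 63.9, 84.1 and 57.9 CPM, then 126 and 132 CPM. Cenpe, a kinetochore motor, rose by 5.69 at D0 and 6.45 at D2, and the 4 subunits of the Ndc80 complex (Ndc80, Nuf2, Spc24 and Spc25) by 3.98 to 5.29 at D0. Cenpa, Cenpf and Cenpe stood higher in both D2 libraries than in any D0 library, as did members of other roles, among them Mki67, Prc1 and Kif11. How many of all genes did so was not counted, and no member was called between D2 and D0.

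All 7 spindle genes and all 6 cytokinesis genes rose at both times. Kif11, the motor that pushes spindle poles apart, went from 0.869, 0.427 and 0.895 CPM to 25.2, 24.3 and 22.7 CPM in D0 and 32.7 and 40.6 CPM in D2. Tpx2, which activates Aurora A on the spindle, went from 0.945, 0.641 and 0.488 CPM to 31.5, 35.4 and 30.2 CPM, then 36.6 and 44.7 CPM. Stmn1, stathmin, which takes microtubules apart, was at 41.5, 31.5 and 37.7 CPM in Ctrl, 276, 426 and 426 CPM in D0, and 332 and 493 CPM in D2. Stmn1 was also at 250 to 349 CPM in endothelial-like cells of the 8 libraries.

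Prc1, which bundles the microtubules of the central spindle, went from 2.46, 0.534 and 1.18 CPM to 53.3, 52.8 and 48.7 CPM in D0 and 81.0 and 81.1 CPM in D2. Ect2, which turns on RhoA at the division furrow, had a smaller change, from 1.28, 0.588 and 0.732 CPM to 7.71, 8.57 and 9.03 CPM, then 10.53 and 9.72 CPM, a log2 change of 3.46 ± 0.25 (SE) at D0. Ect2 was the lowest change among the cytokinesis genes.

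Mki67 (Ki-67), which coats mitotic chromosomes and is the usual histological mark of cycling cells, was at 2.08, 1.23 and 2.36 CPM in Ctrl, 127, 112 and 109 CPM in D0, and 199.99 and 175 CPM in D2. Top2a, the topoisomerase that untangles sister chromatids, was at 3.55, 1.71 and 2.36 CPM, then 129, 108 and 114 CPM, then 157 and 164 CPM. Their groups did not overlap, with log2 changes of 6.12 ± 0.20 and 5.71 ± 0.21 (SE) at D0.

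Of the transcription factors, Foxm1, which drives G2/M genes, went from 0.718, 0.588 and 0.692 CPM to 6.36, 7.68 and 7.93 CPM in D0 and 7.04 and 8.32 CPM in D2. Mybl2 (B-Myb) was lower, at 0.227, 0.374 and 0.325 CPM in Ctrl, 1.15, 0.973 and 2.43 CPM in D0, and 0.658 and 0.412 CPM in D2. It rose at D0 by 2.47 ± 0.46 (SE) and was not called at D2, at 0.95 ± 0.59 (SE, adjusted p = 0.299). Mybl1 (A-Myb), called at both times, was not called at D2 when cells were thinned to 2000 UMIs (1.42, adjusted p = 0.138). With D2-3 in the fit, Mad2l1 and Mybl2 lost their call at D0, with log2 changes that stayed at 2.04 and 2.49. A further list held 11 MuvB, DREAM and pocket protein genes, with a median log2 change of 0.20 at D0. Of these, 3 rose at D0, among them Tfdp1 (1.08) and Rbl1 (0.91), where 12.1% of all genes did. At D2, 0 rose (edgeR, with 1 at an unadjusted p under 0.05), where 10.8% of all genes did.

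**Figure D2:**
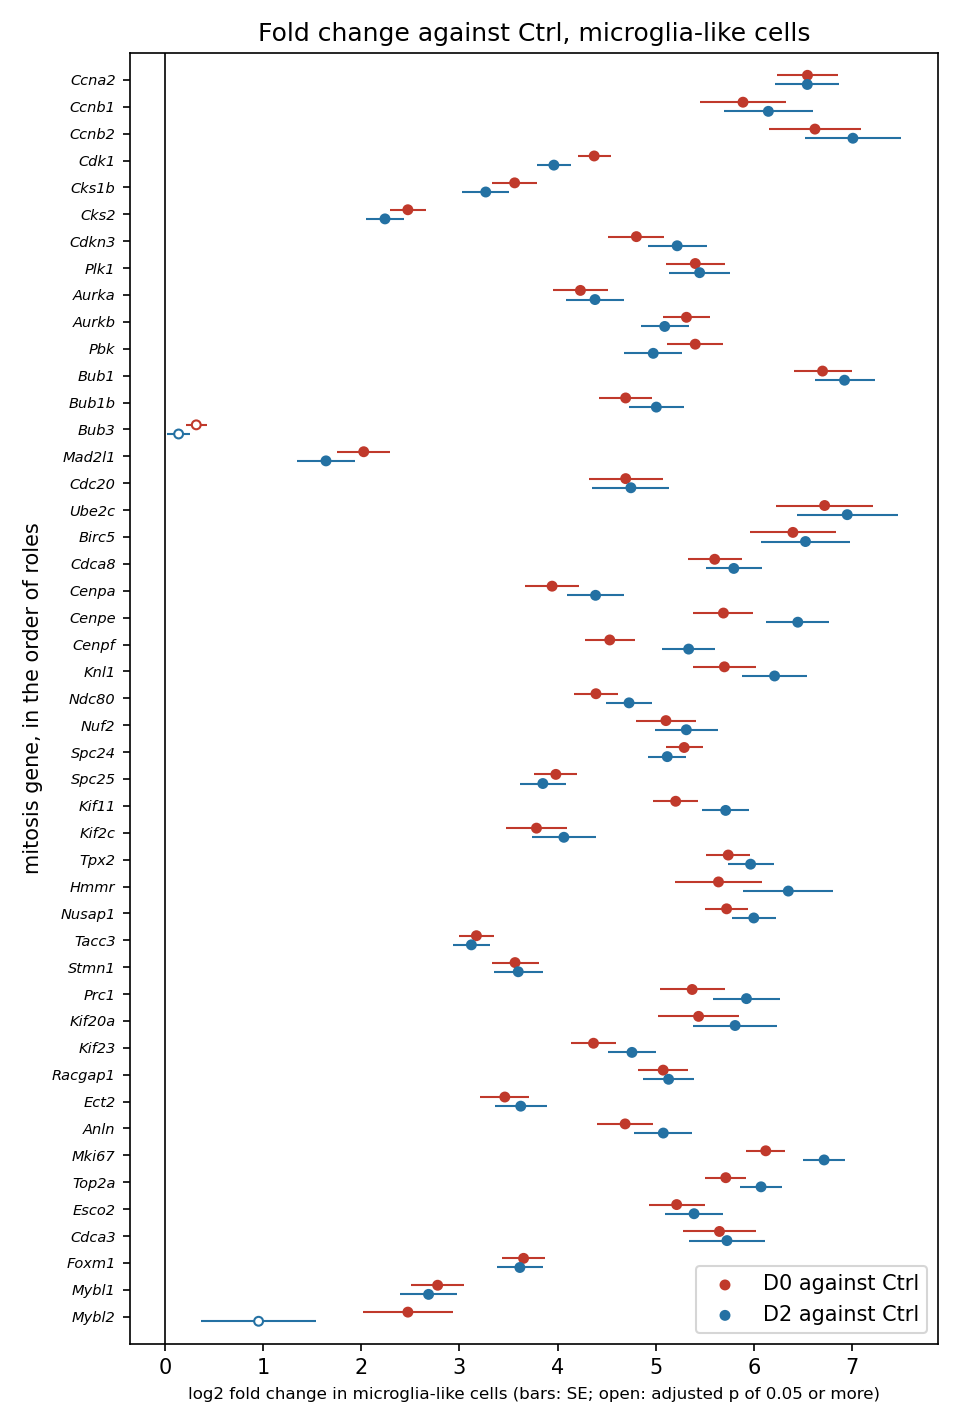
Log2 fold change of each mitosis gene in microglia-like cells at D0 and at D2 against Ctrl, with bars of 1 SE. Open points mark changes with an adjusted p of 0.05 or more: Bub3 at both times, near 0, and Mybl2 at D2.

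Other genes of the cycle were read from lists that hold no member, beside 12.1% of all genes that rose at D0 and 10.8% at D2. Of 18 further G2 genes, 17 rose at D0 and 17 at D2, among them the kinase Melk (6.47 and 6.55) and Cdc25c, the phosphatase that switches Cdk1 on, with 1 UMI in Ctrl, 199 in D0 and 70 in D2. Of 18 further M genes, 17 rose at D0 and 17 at D2, led at D0 by the kinase Nek2 (7.07) and Pimreg (6.38). Of 26 S-phase genes, 21 rose at D0 and 10 at D2, with medians of 2.35 and 1.24, led by Rrm2 (5.99 and 4.86), a subunit of ribonucleotide reductase. The S genes moved with D0-3 above the other D0 libraries, whereas the summed mitosis genes were highest in D0-2.

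Removal of the inhibitor for 2 days changed no member past the threshold. Between D2 and D0, 0 of 47 members were called by edgeR, as were 0 of all 12390 genes (0%), with 6 members and 844 genes at an unadjusted p under 0.05, and 0 members by DESeq2. The largest differences were Cenpf at 0.80 ± 0.23 (SE), Cenpe at 0.76 ± 0.25 (SE) and Hmmr, a spindle protein, at 0.71 ± 0.36 (SE) on the log2 scale. The lowest were Mybl2 at -1.52 ± 0.52 (SE), Pbk at -0.43 ± 0.24 (SE) and Cdk1 at -0.41 ± 0.16 (SE). The adjusted p of these 6 genes was 0.698 to 0.7. With D2-3 in the fit Mybl2, Pbk and Cdk1 were higher at D2 instead, by 0.95, 1.07 and 1.34.

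Whether these levels came from few cells or many was read from cells. A cell was called G2/M from 36 G2 and M genes that are not members. With UMIs of at least 3 different genes, the rule first set, 12.2%, 9.90% and 8.83% of Ctrl microglia-like cells passed. Among the 36 genes, Hjurp, Pttg1, Ncaph and Smc2 were seen in 32.7%, 30.8%, 10.4% and 9.86% of Ctrl cells, and their part in the result was not tested. A rule of at least 5 different genes, chosen after that was seen, is therefore given first. Of 22155 microglia-like cells, 3610 passed the rule of 3 and 1584 of them had exactly 3 genes. The rule of 5 was passed by 1587, and 750 cells had 4 to 6 genes.

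By the rule of 5, G2/M cells were 0.654%, 0.511% and 0.584% of microglia-like cells in Ctrl, 6.24%, 12.9% and 18.2% in D0, and 10.8% and 13.1% in D2. Ranked along division (below), the earliest 107 of the 320 D0-3 cells had a median of 6 G2 and M genes. The early bins of the other libraries ranked had 15 to 19.5. S-phase genes were at 3120 CPM in those D0-3 cells, against 1724 to 3209 CPM. M genes were at 169 CPM, against 861 to 1406 CPM. Whether those cells were in S phase was not tested. At least 10 G2 and M genes were seen in 144 of 3127 cells in D0-1, 357 of 3733 in D0-2 and 178 of 1755 in D0-3. The lowest treated library, D0-1, had an exact 95% binomial interval of 5.41% to 7.14% and the highest Ctrl library one of 0.415% to 0.980%, which cover counting error only. edgeR on cells per class, with all kept cells of a library as its size, put D0 above Ctrl by 4.15 on the log2 scale (adjusted p = 0.00219) and D2 above Ctrl by 4.08 (adjusted p = 0.00219). Without the upper limit on UMIs the differences were 2.12 (adjusted p = 0.104) and 1.82 (adjusted p = 0.164). A two-sided exact permutation test of the shares gave p = 0.1 and p = 0.2, the smallest that 3 against 3 and 2 against 3 libraries allow.

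By the rule of 3, the shares were 12.5%, 22.8% and 30.1% in D0 and 18.3% and 22.6% in D2, so that D0-1 lay close to Ctrl-1, and neither difference was called (0.83, adjusted p = 0.358, and 0.72, adjusted p = 0.403). With each cell thinned to 2000 UMIs, which left out 479 Ctrl, 311 D0 and 414 D2 cells, the same rule gave 0.504%, 0.332% and 0.317% in Ctrl, 5.76%, 9.83% and 11.8% in D0, and 9.49% and 10.51% in D2, differences of 4.36 and 4.51 (adjusted p = 0.000402 for each). In D2-3, 73.4% of 631 microglia-like cells passed the rule of 5. Endothelial-like cells, which should hold few dividing cells, passed it in 5 of 904 in the other 8 libraries and in 4 of 65 (6.15%) in D2-3.

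**Figure D3:**
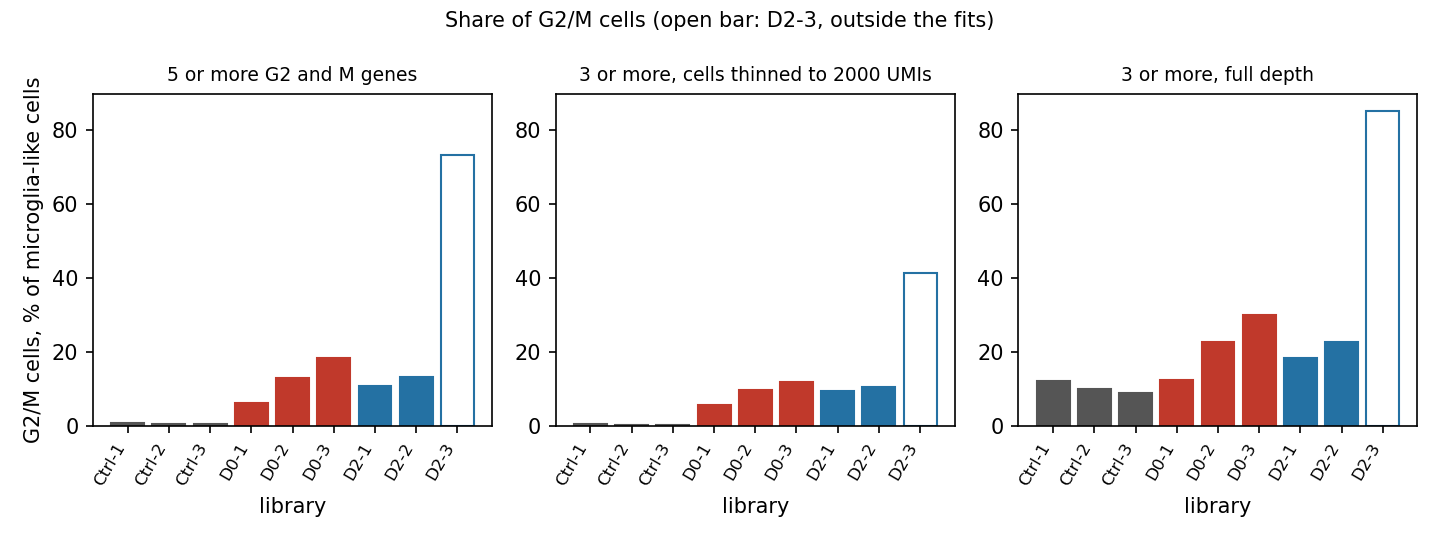
Share of microglia-like cells called G2/M in each library, in percent, by the rule of 5 or more genes, by 3 or more genes after thinning to 2000 UMIs, and by 3 or more genes at full depth. Bars are single libraries without error bars, the open bar is D2-3, and Ctrl bars are close to 0 in the first 2 panels and near 10 in the last.

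The mitosis genes themselves were concentrated in those cells. In D0, cells passing the rule of 5 carried 84.7% of all member UMIs and a median of 33 different members, and in D2 85.2% and a median of 31. They were 11.6% of microglia-like cells in each group and were deeper, with medians of 12948 UMIs in D0 and 9138.5 in D2, against 7375 and 5839 in the rest. In Ctrl, the 53 such cells carried 14.5% of member UMIs and a median of 2 members, and all other cells had a median of 1 in each group. The Ctrl share reads largely Bub3 and Stmn1, at means of 91.6 and 36.9 CPM of a sum of 199 CPM. In D0 these 2 genes were at 98.9 and 376 of 2033 CPM, so the shares of the groups are not alike. Mki67 was in 83.1% of the D0 cells that passed and in 26.4% of the Ctrl cells that passed, whose median depths were close (12948 and 13340 UMIs). At least 10 of the 36 genes were seen in 6 of 8918 Ctrl, 679 of 8615 D0 and 367 of 4622 D2 microglia-like cells.

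Within dividing cells, no member was called between D2 and D0 in the main fit. Among cells passing the rule of 5, Mki67 was at 1107, 629 and 471 CPM in D0 and 1284 and 978 CPM in D2, and Cenpf at 548, 465 and 240 CPM against 776 and 682 CPM. The D2 libraries of Cenpf lay above those of D0, and those of Mki67 overlapped. By edgeR 0 of 47 members and 0% of 9990 genes were called, with 7 members and 1392 genes at an unadjusted p under 0.05, and 0 members by DESeq2. The largest differences were Cenpe at 0.78 ± 0.26, Cenpf at 0.78 ± 0.27 and Hmmr at 0.73 ± 0.25 (SE, adjusted p = 0.237 to 0.258), and the lowest were Mybl2 at -1.52 ± 0.43 (SE), Cdk1 at -0.34 ± 0.20 (SE) and Pbk at -0.34 ± 0.20 (SE). Without D0-1, 6 members were called higher at D2 (Cenpe, Mki67, Hmmr, Prc1, Kif11 and Top2a), as were 115 of 10135 genes, with 113 genes lower. The cause was not tested.

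Cells without those marks still held some of the transcripts. Outside the cells called G2/M or S by the rule of 3, 42 members were abundant enough to test, of which 24 were higher at D0, where 7.15% of 11910 genes were higher and 2.58% lower. At D2, 27 members were higher, where 7.85% of genes were higher and 5.1% lower. No member was lower. Members that passed the filter here did so partly through the groups where they are high. Not tested were Pbk, Bub1, Kif20a, Esco2 and Mybl2, which had too few UMIs there.

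Ube2c had 3 UMIs in all such Ctrl cells, 761 in D0 and 542 in D2, at 2.04, 29.6 and 8.39 CPM in D0 and 22.7 and 31.8 CPM in D2. Mki67 was at 0.220, 0.371 and 0 CPM in Ctrl, 4.42, 7.40 and 5.22 CPM in D0, and 10.7 and 9.75 CPM in D2, log2 changes of 5.16 (adjusted p = 0.000403) and 5.85 (adjusted p = 0.000251). Ccnb2 was at 0, 0.371 and 0.398 CPM in Ctrl, 0.913, 12.1 and 7.42 CPM in D0, and 8.24 and 13.3 CPM in D2. D0-1 held the least Ube2c and Ccnb2 of the treated libraries.

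Stmn1 was at 33.7, 26.9 and 29.7 CPM, then 40.3, 113 and 85.8 CPM, then 71.1 and 129 CPM, a log2 change of 1.68 at D0. Other members were not called there: the log2 differences from Ctrl at D0 and D2 were -0.09 and -0.29 for Bub3, -0.32 and -0.11 for Mad2l1, 0.16 and 0.02 for Foxm1, and 1.08 (adjusted p = 0.123) and 1.30 (adjusted p = 0.0852) for Cdc20. Also not called at either time were Aurka, Plk1, Bub1b, Kif23, Kif2c, Ect2, Spc25, Ndc80 and Mybl1, at -0.56 (Ect2) to 1.83 (Plk1) at D0. Hmmr, Nusap1, Kif11, Anln and Nuf2 were called at D2 and not at D0, Cks1b (0.97 at D0 and 0.87 at D2) and Cks2 (0.74 and 0.37) at D0 and not at D2, and the difference between D2 and D0 was not tested in these cells. Endothelial-like cells, which should hold few of these transcripts, were read beside them. Cells called G2/M or S were not taken out here, and in D0-3 16 of 134 passed the rule of 3. By the rule of 5, 2 of the 134 passed, and the part of free RNA in the endothelial-like level was not tested. Ube2c of all endothelial-like cells was at 3.19, 7.84 and 26.2 CPM in D0 and 1.52 and 0 CPM in D2. The microglia-like cells of D0-1 and D0-3 were below it and those of D0-2 and both D2 libraries above it. Endothelial-like Mki67 was at 6.37, 3.14 and 0 CPM in D0 and 9.09 and 4.93 CPM in D2, so that D0-1 was below it. At least 10 members were still seen in 49 D0 and 46 D2 microglia-like cells outside G2/M and S, and the part of free RNA or of missed dividing cells was not tested. Without D0-2 the D0 count was 14, and with Cell Ranger version as a term the counts were 10 at D0 and 17 at D2. With that term the difference from Ctrl rests on Ctrl-1, the only Ctrl library that shares its version with the D0 and D2 libraries fitted.

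The order of the genes along division was read within dividing cells. The 998 cells of D0 and 536 cells of D2-1 and D2-2 passing the rule of 5 were ranked in each library by a position built from the S, G2 and M lists without any member, and cut into an early, a middle and a late bin of equal size. The UMIs of each library and bin were compared with library as a block over 5 libraries. Late against early, 19 members were higher late (8.55% of 7989 genes were) and 2 higher early (12.1% were), of 46 tested. The median member changed by 0.63 on the log2 scale, against -0.02 over all genes.

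Cdc20, the activator of the APC/C, had the largest change. It rose from 62.8, 84.3 and 5.39 CPM in the early bins of D0 and 61.8 and 128 CPM in those of D2 to 283, 466 and 345 CPM and 380 and 357 CPM in the late bins, a change of 2.64 ± 0.31 (SE, adjusted p = 1.53e-05). Its level was 68.4 ± 44.2 (SD, n = 5) early and 366 ± 66.3 (SD, n = 5) late, and it was higher late in 5 of 5 libraries. Ube2c followed with 2.12 ± 0.42 (SE), from 229 ± 131 to 818 ± 103 CPM (SD, n = 5), then Ccnb1 with 2.10 ± 0.32 (SE), from 63.6 ± 36.1 to 243 ± 40.7 CPM (SD, n = 5).

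The centromere and kinetochore genes split. Cenpa (2.05), Cenpf (1.75) and Cenpe (1.64) were higher late, while Ndc80 (-0.10), Nuf2 (0.62), Spc24 (-0.45), Spc25 (-0.37) and Knl1 (0.38) were not called. Among kinases, Plk1 (1.27) and Aurka (1.14) were higher late and Aurkb (-0.28) and Pbk (-0.81) were not called. Cdkn3 (1.95), Ccnb2 (1.87), Hmmr (1.66), Kif20a (1.64), Kif2c (1.43), Cks2 (1.21), Tpx2 (1.06), Ect2 (1.05), Birc5 (0.93), Cks1b (0.64) and Bub3 (0.55) complete the late genes. Bub3 was therefore higher in late than in early dividing cells, at 170 ± 50.9 and 247 ± 57.1 CPM (SD, n = 5) and in 4 of 5 libraries, although its level over all microglia-like cells was not called. Its adjusted p was 0.0436, and it was not called without D0-1 (0.57), D0-2 (0.66), D0-3 (0.24) or D2-1 (0.59).

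Early genes were Esco2, the acetyltransferase that locks cohesin onto sister chromatids during replication, which fell by 2.16 on the log2 scale from 212 ± 127 to 47.3 ± 36.6 CPM (SD, n = 5), and Mybl1 (A-Myb), which fell by 1.92, from 27.1 ± 12.02 to 7.32 ± 7.19 CPM (SD, n = 5). Mybl2 had too few UMIs to test, with 18.7, 14.4 and 12.1 CPM in the early bins of D0 and 5.45 and 7.10 CPM in those of D2, and 0 to 2.22 CPM in the late bins. Esco2 and Mybl1 were higher early in 4 of 5 libraries, D0-3 being the other.

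Several markers used for dividing cells were not called in either direction. These were Top2a (-0.16 ± 0.29, SE), Stmn1 (-0.16 ± 0.16, SE), Cdk1 (0.15 ± 0.21, SE), Nusap1 (0.16 ± 0.40, SE) and Mki67 (0.54 ± 0.28, SE, adjusted p = 0.178). Mki67 was at 726 ± 399, 1023 ± 399 and 955 ± 348 CPM (SD, n = 5) in the early, middle and late bins, and Top2a at 835 ± 433, 984 ± 257 and 704 ± 262 CPM (SD, n = 5), so that both were highest in the middle by their means, within the spread of the libraries. Ccna2, which is destroyed before the B cyclins, was higher late in 5 of 5 libraries but not called (0.90 ± 0.34, SE, adjusted p = 0.0698). The cytokinesis genes Racgap1 (0.80), Kif23 (0.79), Prc1 (0.77) and Anln (0.56), the passenger subunit Cdca8 (0.77), and Cdca3 (0.51) and Tacc3 (0.45) lay in the same direction without a call. So did Bub1 (0.52), Bub1b (0.37), Kif11 (0.37) and Foxm1 (0.20), while Mad2l1 was at -0.09.

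The early bin of D0-3 stood apart, with 0.201% of its UMIs from members against 0.979% to 1.44% in the early bins of the other libraries, and a median position of 0.239 against 0.671 to 0.920. Without D0-3, 32 members were called, 22 higher late and 10 higher early, where 676 of 7618 genes were higher late and 1020 higher early. Cdc20 was then at 2.20, Ccnb1 at 1.66, Cdkn3 at 1.58 and Ube2c at 1.51. The 10 were Esco2 (-3.02), Mybl1 (-2.85), Pbk (-1.51), Spc25 (-0.99), Spc24 (-0.85), Aurkb (-0.81), Top2a (-0.60), Ndc80 (-0.53), Stmn1 (-0.41) and Nusap1 (-0.38). Without the library block 10 members were called. By the rule of 3 genes, 23 members were higher late (6.06% of 9141 genes were) and 2 higher early (7.43% were).

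**Figure D4:**
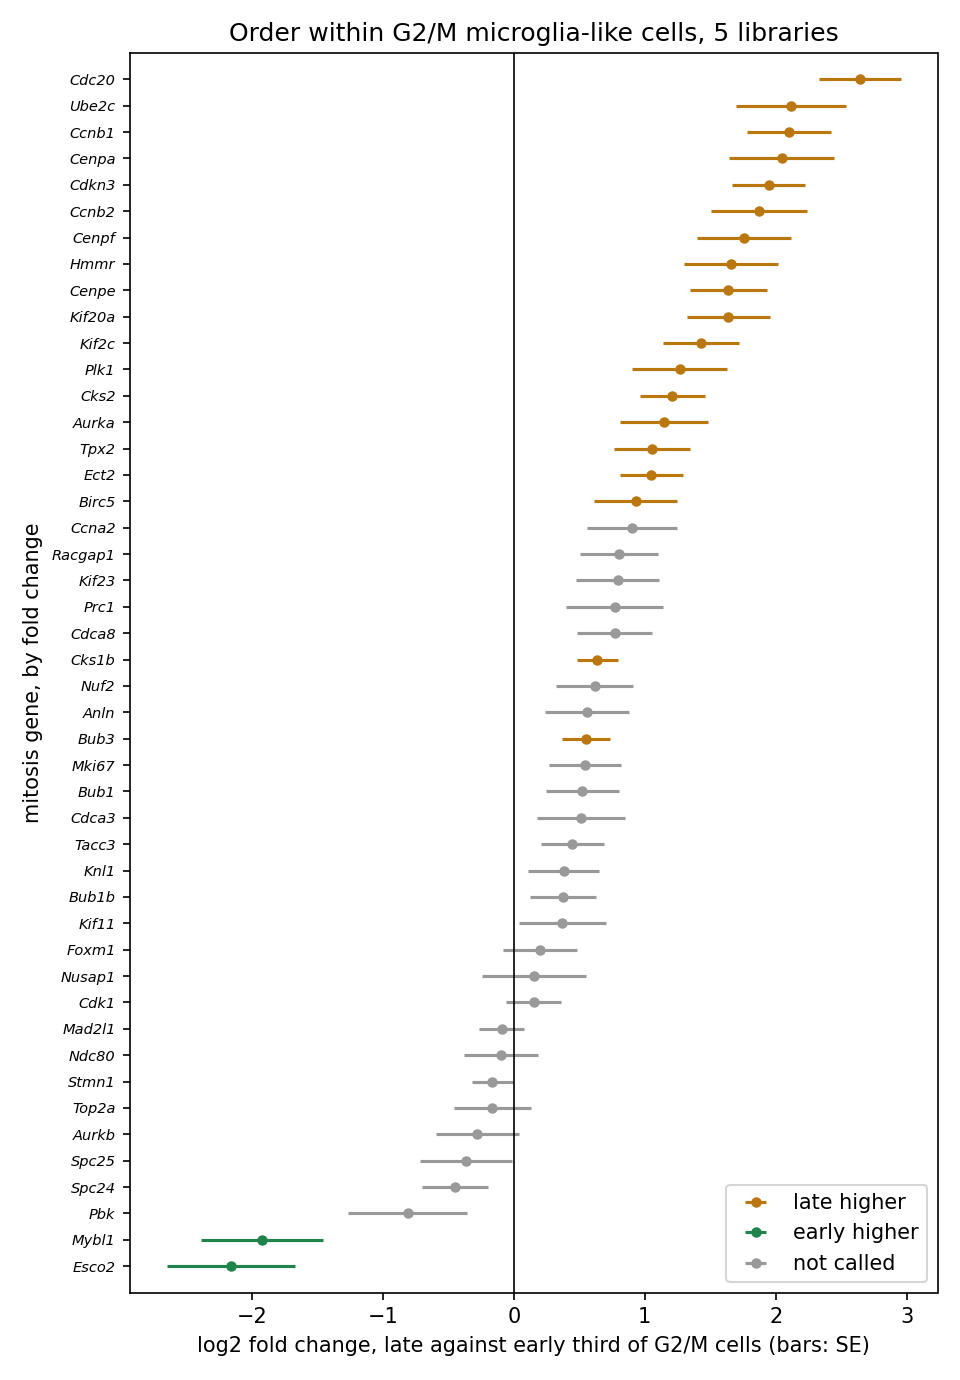
Log2 fold change of 46 mitosis genes between the late and early bins of dividing microglia-like cells, 5 libraries, with bars of 1 SE, sorted by size. Coloured points were called at an adjusted p under 0.05, Cdc20 is at the top with 2.64 and Esco2 at the bottom with -2.16, and grey points, Top2a, Stmn1, Cdk1 and Mki67 among them, were not called.

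Neighbouring bins differed less. Middle against early, 3 members were higher (1.06% of genes were) and none lower (1.56% were), with a median member difference of 0.59, and late against middle 0 members were called by edgeR (0.313% of genes were higher late and 1.71% lower), with 10 members and 1248 genes at an unadjusted p under 0.05 and a median member difference of 0.06. Of the promoters above, a CCAAT box was in 15 of 17 late members with a window and in 12 of 19 members not called, and a CHR in 8 of 17 and 6 of 19, which are descriptions without a test. Late against early, 8.55% of all genes were higher and 12.1% lower. Of the APC/C genes, 3 of 15 were higher late, among them the subunit Cdc23 (0.93) and the co-activator Fzr1 (0.62), which replaces Cdc20 at mitotic exit. In the other direction, 2 of the 15, Anapc5 (-0.39) and Anapc11 (-0.31), were lower. Of 10 MuvB, DREAM and pocket protein genes tested, 6 were lower late, led by Tfdp1 (-2.0) and Tfdp2 (-1.46), which pair with E2F factors.

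Monocyte-like cells, few in each library (10, 117 and 35 in Ctrl, 37, 121 and 75 in D0, 37 and 66 in D2), held mitosis genes unevenly. Their sum was 2111, 365 and 310 CPM in Ctrl, 1500.1, 3133 and 338 CPM in D0, and 4165 and 1804 CPM in D2. The Ctrl library with 2111 CPM had 10 cells, 1 of them passing the rule of 5. Mki67 had 12, 3 and 0 UMIs in Ctrl, 24, 175 and 3 in D0, and 95 and 62 in D2. At D0 against Ctrl, in libraries with 20 or more such cells, 36 members were tested and 0 were called by edgeR (0.0654% of 6113 genes rose and 0.752% fell), with 28 members and 891 genes at an unadjusted p under 0.05 and 0 members by DESeq2. With the replicate number as a block, 12 members and 40 genes were called higher. Without D0-3, in which no monocyte-like cell passed the rule of 5, 19 of 29 members tested were called higher, as were 40 of 4942 genes, with 65 genes lower. Cells passing the rule of 5 numbered 0 of 117 in Ctrl-2, 0 of 35 in Ctrl-3, 1 of 37 in D0-1 and 15 of 121 in D0-2. Members that passed the filter here did so partly through the groups where they are high. Ube2c and Birc5, the first of them by size, had 0 UMIs in the Ctrl libraries tested and passed it through the other groups.

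At least 10 G2 and M genes were seen in 1 Ctrl, 14 D0 and 6 D2 monocyte-like cells. The 23 monocyte-like cells of the 8 libraries that passed the rule of 5, 15 of them in D0-2, differed from the others in markers of several types. The 23 had a median depth of 16675 UMIs, against 7151 in the rest, and its part in the result was not tested. Ly6c2, a marker of classical monocytes, was at 2105 CPM in them and 1053 CPM in the rest, S100a8 at 3339 and 139 CPM, the granule protease gene Elane at 115 and 12.4 CPM, and the 12 microglia markers summed at 863 and 2889 CPM. The neutrophil markers summed to 7343 CPM in them and 462 CPM in the rest, while Ccr2, another monocyte gene, was at 627 and 723 CPM and Ngp at 2.88 and 5.89 CPM. In the 12 monocyte-like cells of D2-3 that passed the rule of 5, Ly6c2 was at 279 CPM against 314 CPM in the rest, and Elane at 0. There S100a8 was higher too, at 2211 against 231 CPM, as were the summed neutrophil markers, at 4221 against 745 CPM. The microglia markers went the other way from the 8 libraries, at 3406 against 1385 CPM. These are sums over cells, without a test, and doublets were not removed.

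In dendritic cell-like cells the sum was 416, 303 and 269 CPM in Ctrl, 682, 495 and 547 CPM in D0, and 825 and 695 CPM in D2, with these D0 and D2 libraries all above Ctrl, and 399 CPM in D2-3, below the highest Ctrl library. The cells numbered 24, 14 and 21 in Ctrl, 89, 184 and 108 in D0, and 68 and 97 in D2. Ctrl-2, with fewer than 20 of them, was not in the fit. At D0, 16 members were tested and 0 were called by edgeR (0.0139% of 7219 genes rose), with 5 members and 459 genes at an unadjusted p under 0.05 and 0 members by DESeq2. Mki67 had 3, 1 and 1 UMIs in Ctrl, among the 127, 41 and 55 member UMIs that made the Ctrl sums above. Mki67 was at 36.5, 17.7 and 19.4 CPM in D0 and 83.0 and 56.2 CPM in D2, a unit unlike the Ctrl counts. At least 10 G2 and M genes were seen in 1 Ctrl, 3 D0 and 3 D2 cells of this class. The 20 cells passing the rule of 5 had less Cd209a, a dendritic cell gene, than the rest (608 against 1263 CPM). The 12 microglia markers summed to 3646 CPM in the 20 and 1962 CPM in the rest, with P2ry12 at 149.99 and 64.4 CPM. Whether all 20 were dividing was not tested. The monocyte markers summed to 669 and 1255 CPM, and the part of these markers in the result was not tested.

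Neutrophil-like cells held 387, 435 and 739 CPM in Ctrl, 881, 1228 and 832 CPM in D0, and 3274 and 307 CPM in D2, so D0 lay above Ctrl in every library and the 2 D2 libraries lay at opposite ends. D2-3 held 588 CPM. The cells numbered 15, 87 and 33 in Ctrl, 103, 517 and 175 in D0, and 86 and 159 in D2. Of them, 0, 0 and 2 passed the rule of 5 in Ctrl, 2, 28 and 1 in D0, and 7 and 0 in D2. The sums of D0-1 and D0-3 thus hold few such cells, and their part in the sums was not tested. Ctrl-1, with fewer than 20 of them, was not in the fit. At D0, 15 members were tested and 0 were called by edgeR (0.0219% of 4573 genes rose and 0.0875% fell), with 1 member and 468 genes at an unadjusted p under 0.05 and 0 members by DESeq2. At least 10 G2 and M genes were seen in 0 Ctrl, 20 D0 and 7 D2 cells of this class. The 40 cells passing the rule of 5, 28 of them in D0-2, carried more of the granule genes Camp (53662 against 23869 CPM), Ngp (52166 against 28608 CPM) and Fcnb (463 against 103 CPM), and less Ly6g (520.2 against 867 CPM), a gene of mature neutrophils. Their median depth was 15569 UMIs, against 3264 in the rest, and its part in the result was not tested.

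Endothelial-like cells summed to 534, 498 and 486 CPM in Ctrl, 469, 585 and 572 CPM in D0, and 467 and 465 CPM in D2, most of it from Stmn1 and Bub3. Ctrl and D0 overlapped, and both D2 libraries lay just below the lowest D0 library. D2-3 held 857 CPM. Of these 5 classes in the 8 libraries, the sums of D0 lay above all of Ctrl in microglia-like, dendritic cell-like and neutrophil-like cells. Those of D2 did so in microglia-like and dendritic cell-like cells, while monocyte-like sums overlapped. Border-associated macrophage-like cells held 233, 191 and 229 CPM in Ctrl, 274, 549 and 341 CPM in D0, and 533 and 453 CPM in D2, so both lay above Ctrl there too. At least 10 G2 and M genes were seen in 0 of 462 Ctrl, 0 of 94 D0 and 0 of 34 D2 cells of that class. Differences between classes were not tested.

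**Figure D5:**
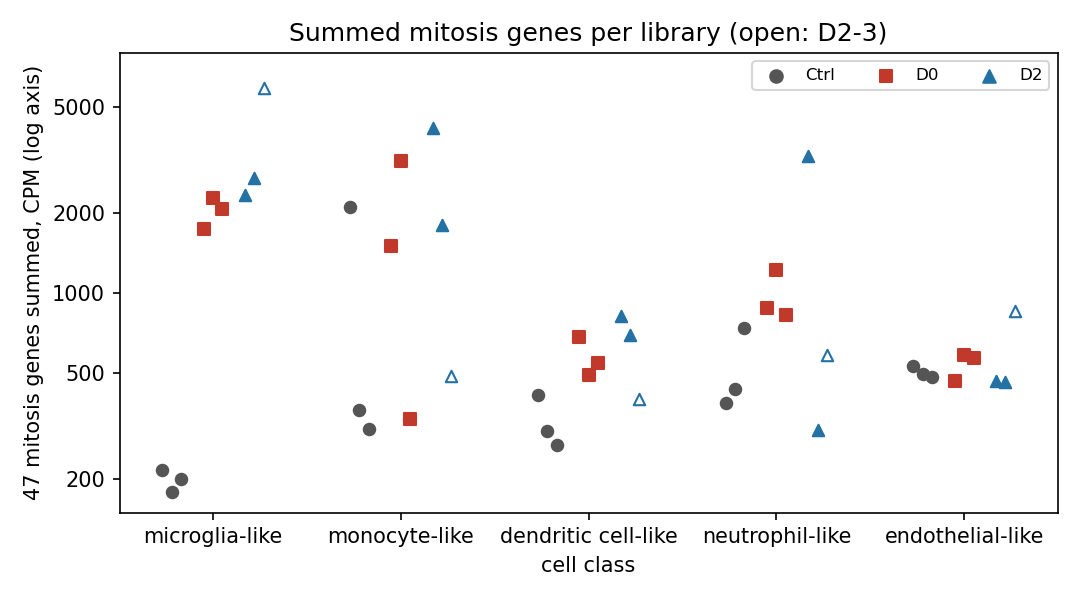
Sum of the 47 mitosis genes per library in 5 cell classes, in CPM on a log axis, each point 1 library and open points D2-3. In microglia-like cells the Ctrl points, 179 to 217 CPM, sit below all D0 and D2 points, which start at 1739 CPM, while monocyte-like points of the groups overlap and a D2 neutrophil-like point lies below Ctrl.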

How the data were processed

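The authors deposited, per the labels and file headers, raw UMI counts per gene and barcode from Cell Ranger (mm10) for 9 libraries, with no normalization. The labels name version 3.1.0, and the headers give 3.0.2 in 6 libraries and 3.1.0 in Ctrl-2, Ctrl-3 and D2-3. Fits with version as a term therefore compare D0 and D2 with Ctrl through Ctrl-1. The members and gene lists were chosen with earlier results of these data known.

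A barcode was kept if its UMIs numbered 500 to 20000, no fewer than 200 genes were seen and mitochondrial genes held no more than 10% of UMIs. Doublets were not removed. Cells were clustered with scanpy 1.11.5 and leidenalg 0.10.2 (10 principal components, 20 neighbours, 3000 genes, resolution 0.6) without 176 cell-cycle genes, and clusters were named by marker lists. A library was 1 replicate, and p-values measure the spread between these libraries, of 1 brain each in Ctrl and 2 pooled brains in D0 and D2.

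UMIs were summed per library and class (at least 20 cells) and tested with edgeR 4.0.16 (TMM, filterByExpr, glmQLFit and glmQLFTest, R 4.3.3) over all genes, at an adjusted p under 0.05. Same-numbered Ctrl and D0 libraries deviated together (correlations of 0.42, 0.20 and 0.18), and different-numbered ones correlated at -0.39 to 0.30, the highest being Ctrl-3 with D0-2. Same-numbered pairs with D2 correlated at -0.12 to 0.27, and different-numbered ones at -0.34 to 0.34. The labels state no pairing, and these values do not settle whether there was one. A library block was used for bins of dividing cells. DESeq2 1.42.0, other scalings, no filter, leaving out each library, D2-3, no upper UMI limit, thinning, other resolutions and phase rules, a replicate block and Cell Ranger version as a term were alternatives. On simulated data, edgeR recovered 51 of 100 genes changed 2-fold and 100 of 100 changed 4-fold for D0 against Ctrl, with 3 false calls among 12311 genes. The simulation followed microglia-like sums, gave every gene the same dispersion and changed only well-counted genes. Recovery of genes with few UMIs, or in the smaller classes, was not tested. By rule, any member could be named, a set of members from every role were given in every library, and in each comparison the 3 largest and 3 smallest changes and the main members not called, while for the other lists the leading 2 called genes each way could be named. Shares have exact binomial intervals, which cover counting error only. The rule of 5 genes and the bins between neighbours were added after the data were seen.

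Total UMIs were 20257894 to 61230741 per library and median UMIs per kept cell 4810 to 9243.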

Additional observations from a re-analysis of the deposited data

Results flagged for a closer look

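Library D2-3, which entered the fits only as an alternative, stood above the control samples in both main measures. The mitosis genes summed to 5932 CPM in its microglia-like cells, where the highest Ctrl library held 217 CPM and the highest library in the fits 2722 CPM. Of its 631 microglia-like cells, 73.4% passed the rule of 5 genes, where the highest Ctrl library had 0.654%. Its S-phase genes summed to 2132 CPM, and its microglia markers to 9527 CPM against 18661 to 36134 CPM in the other libraries. With it in the fit, 44 members were called at D0 and 45 at D2.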

How the results depend on the processing

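The counts of members called in all microglia-like cells kept their direction and stayed within 1.5 times under all alternatives run, 46 to 47 at D0, 45 to 45 at D2 and 0 to 0 for D2 against D0 when each library was left out. Among cells outside G2/M and S, D0 calls numbered 10 with Cell Ranger version as a term and 14 to 26 without 1 library (14 without D0-2), and D2 calls 17 with that term, 17 with a rule of 2 genes and 18 to 27 without 1 library. There Mad2l1 at D0 was at 0.19 thinned and 0.0656 with the version term. At D2 it was at 0.27 with the term, 0.0938 with a rule of 5 genes and -0.29 to 0.10 without 1 library, and Foxm1 was at -0.20 with the term, -0.00154 with no filter and -0.45 to 0.52 without 1 library.

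With D2-3 included, D2 against D0 gave 1.34 for Cdk1, 0.95 for Mybl2 and 1.07 for Pbk. With no filter, D2 against D0 in G2/M cells called 6 members by the rule of 3 and 5 by the rule of 5, where leaving out 1 library gave 0 to 0 and 0 to 6 (6 without D0-1). Late against early bins called 40 and 38 members with no filter by the rules of 3 and 5, 12 and 10 without the replicate block, and 14 to 27 and 17 to 32 (32 without D0-3) without 1 library. Cdk1 was then at -0.21 with the position from G2 and M genes and -0.18 to 0.36 without 1 library, and Top2a at 0.24 with no upper UMI limit and -0.60 to 0.11 without 1 library.

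At D0, monocyte-like cells gave 32 calls with no filter, 1 thinned and 0 to 19 without 1 library, dendritic cell-like cells 2 with no filter and 0 to 1, and neutrophil-like cells 13 with no filter, 10 with no upper UMI limit and 0 to 0. The G2/M share by the rule of 3 differed from Ctrl by 4.36 at D0 and 4.51 at D2 when thinned, 4.15 and 4.08 by the rule of 5, -0.0751 at D2 by a rule of 2, and 0.61 to 1.09 and 0.65 to 0.84 without 1 library. By the rule of 5 with no upper UMI limit it differed by 2.12 and 1.82, and by 3.86 to 4.45 and 3.99 to 4.15 without 1 library. The cause of these changes was not tested.

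With the number as a replicate block, 47 members were called at D0, 45 at D2, 0 for D2 against D0 and 12 in monocyte-like cells, and Foxm1 outside G2/M and S was at -0.094 at D2. For D0 against Ctrl the block changed no other call among the results given than Bub3 and the monocyte-like count. The version term could not be fitted for G2/M, monocyte-like or neutrophil-like cells, nor dendritic cell-like cells at the lower resolution.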
